A study of Mus musculus with 45 samples.

Results

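The kidneys of mice fed a high-cholesterol diet with the Ganoderma lucidum extract Gl-2 (HCD+Gl-2) were compared with those of mice fed the high-cholesterol diet alone (HCD), over all 22080 genes of the deposited table. The comparison used 6 of the 45 arrays of the series, 3 for each diet. All mice were male C57BL/6 animals aged 7 weeks, 8 per group, and were sacrificed on day 43. HCD was the AIN-93 diet with 0.5% cholesterol, and HCD+Gl-2 was the same diet with 1% of a lyophilized extract of fruiting bodies grown on a substrate that contained acetylsalicylic acid. The other kidney groups were Control (AIN-93 without added cholesterol), HCD+Gl-1 (cholesterol and 1% of an extract of fruiting bodies grown without acetylsalicylic acid) and HCD+Sim (cholesterol and simvastatin, a drug that lowers blood cholesterol), and liver and brain were measured for the same diets. The methods of the study describe pools of 4 mice each for A and B, with C mixed from the pair, so only 2 pools per diet are independent and the p-values below measure a spread that is partly technical.

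Immediate early genes are transcribed within minutes of a stimulus without new protein synthesis. Their products are first a set of transcription factors, then proteins that end the response by removing messenger RNA, dephosphorylating kinases or blocking signalling, and then secreted ligands. In kidney the same stimuli also reach tubule cells through growth factor, calcium and stress pathways. The kidney further oxidizes fatty acids as its main fuel, forms glucose, and in male mice carries a large androgen-dependent programme of cytochromes and transporters.

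Immediate early genes made up most of what was higher with Gl-2. Of the 22080 genes, 47 were higher in HCD+Gl-2 than in HCD and 27 were lower, where differentially expressed (DE) genes had a log2 fold change beyond 0.7 in either direction with adjusted p up to 0.05 (limma, Benjamini-Hochberg over all genes). These calls were 0.213% and 0.122% of the genes tested. Of the 47 higher genes, 29 stood on lists of immediate early factors, feedback regulators and secreted products, and 4 on a list of heat shock genes. The lists were written with earlier results of these data known, so these counts are a description. Of the 27 lower genes, 22 were grouped as repeated families by the start of their names (Gm, LOC, Vmn1r, Snord, Sly or Srsy). Of these 22, 14 stood on a list of multicopy Y genes. Among the 22, 7 had no match in the reference tables, and copy numbers were not checked. The remaining 5 of the 27 were Srd5a2, Hrg, Cyp4a12a, Npas2 and Wdr83os. In each of these 74 genes the arrays of the 2 diets did not overlap, although over all genes the HCD+Gl-2 arrays also lay above those of HCD in 11.4% and below them in 9.08%. The median log2 fold change of all genes was 0.01, and 1980 genes had an unadjusted p under 0.05.

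**Figure D1:**
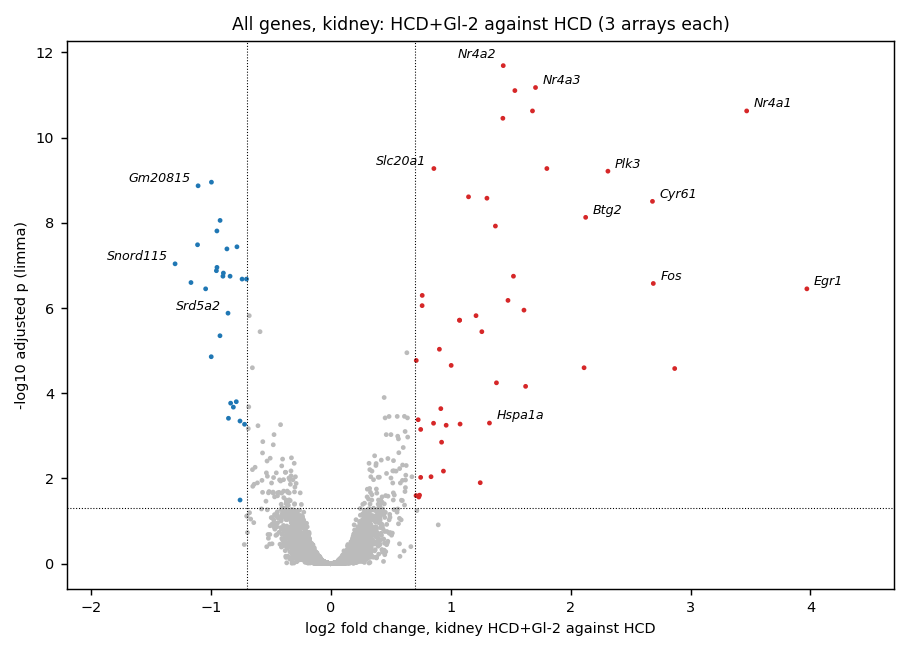
Every gene of the kidney comparison, with the log2 fold change of HCD+Gl-2 against HCD on the x axis and -log10 of the limma adjusted p on the y axis. Dotted lines mark the thresholds of 0.7 and 0.05. Red points are the 47 genes called higher, which reach a log2 fold change of 3.97, and blue points the 27 called lower, which reach -1.30.

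The values are log2 levels. The medians of the kidney arrays lay between 6.83 and 6.88, and any 2 arrays of a kidney diet correlated at 0.9955 to 0.9973. Of 26 markers of nephron and collecting duct segments, 24 were higher in kidney than in liver and brain under HCD and 25 under HCD+Gl-2. With 3 arrays a group no exact two-sided test of 1 gene can go under p = 0.1, so calls came from the fit that shares the spread over genes. In whole kidney, changes in RNA per cell and in the number of cells of a type cannot be told apart.

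Transcription factors of the early growth response and AP-1 families rose strongly. Egr1, a zinc finger factor, read 6.92, 6.70 and 6.45 in HCD pools A, B and C and 10.73, 10.44 and 10.80 in HCD+Gl-2, a log2 fold change of 3.97 ± 0.48 (SE; adjusted p = 3.54e-07) or a fold of 15.7. Fos, a subunit of AP-1, read 5.89, 6.08 and 6.04 in HCD and 8.85, 8.45 and 8.78 in HCD+Gl-2, a log2 fold change of 2.69 ± 0.32 (adjusted p = 2.65e-07). Jun, its main partner in AP-1, read 7.32, 7.19 and 7.37 in HCD and 9.50, 8.92 and 9.80 in HCD+Gl-2, a log2 fold change of 2.11 ± 0.31 (adjusted p = 2.52e-05). In all of these genes the lowest HCD+Gl-2 array, pool B, stood above the highest HCD array. The AP-1 subunits Fosb and Junb rose by 1.07 and 0.91 on the log2 scale, and Fosl2 passed the adjusted p alone at 0.61 (adjusted p = 3.49e-04). Egr2, a second early growth response factor, rose by a log2 fold change of 1.62 ± 0.25 (adjusted p = 6.89e-05).

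The orphan nuclear receptors of the Nr4a family, which act without a known ligand and are induced by cyclic AMP and calcium, all rose. Nr4a1 read 6.94, 6.98 and 6.81 in HCD and 10.47, 10.05 and 10.62 in HCD+Gl-2, a log2 fold change of 3.47 ± 0.28 (adjusted p = 2.36e-11). Nr4a3 read 4.94, 4.92 and 4.99 in HCD and 6.75, 6.39 and 6.83 in HCD+Gl-2, a log2 fold change of 1.71 ± 0.13 (adjusted p = 6.66e-12). Nr4a2 read 6.20, 6.29 and 6.35 in HCD and 7.87, 7.59 and 7.69 in HCD+Gl-2, a log2 fold change of 1.44 ± 0.10 (adjusted p = 2.04e-12), the smallest adjusted p of the comparison. The arrays of the 2 diets did not overlap in any member of the family. Other factors of the list that rose were Ier2 (log2 fold change 1.48), Ier3 (1.43), Atf3 (1.37), a repressor induced by many stresses, Csrnp1 (1.15) and Klf6 (0.76), of which Klf6 lost its call without pool C of HCD+Gl-2 (0.69). In total 14 of 26 listed factors were DE and all of them were higher, with a list median of 0.83. Egr3 (log2 fold change 0.10), Egr4 (-0.08), Fosl1 (0.14), Klf4 (0.06) and Myc (0.38) did not pass the test.

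Some of the listed feedback regulators of an immediate early response rose with the factors. Plk3, a stress-activated kinase, read 6.90, 7.07 and 7.25 in HCD and 9.59, 8.87 and 9.71 in HCD+Gl-2, a log2 fold change of 2.31 ± 0.21 (adjusted p = 6.13e-10). Btg2, which blocks proliferation and promotes shortening of messenger RNA tails, read 6.85, 7.04 and 7.00 in HCD and 9.29, 8.88 and 9.10 in HCD+Gl-2, a log2 fold change of 2.13 ± 0.21 (adjusted p = 7.43e-09). Zfp36, which binds AU-rich messenger RNA and speeds its decay, read 8.30, 8.18 and 8.33 in HCD and 10.15, 9.81 and 10.26 in HCD+Gl-2, a log2 fold change of 1.80 ± 0.16 (adjusted p = 5.31e-10). All 3 genes were lowest in pool B among the HCD+Gl-2 arrays and still lay above every HCD array. Dusp1, a phosphatase of MAP kinases, read 10.32, 10.28 and 10.42 in HCD and 12.03, 11.69 and 12.12 in HCD+Gl-2 (log2 fold change 1.61 ± 0.20, adjusted p = 1.12e-06). Slc25a25, a calcium-regulated carrier of ATP into mitochondria, read 7.91, 7.92 and 8.02 in HCD and 9.72, 9.25 and 9.92 in HCD+Gl-2 (1.68 ± 0.13, adjusted p = 2.36e-11). In Slc25a25 and Zfp36 the HCD arrays lay below all 12 other kidney arrays. Against Control, HCD+Gl-2 was higher by 1.25 in Slc25a25 and 1.49 in Zfp36. Slc25a25 was also above HCD with Gl-1 (0.65, adjusted p = 0.0114) and simvastatin (0.60, adjusted p = 0.0299), below the fold threshold. Gem, a small GTPase that lowers calcium channel activity, rose by 1.54, Gadd45g by 1.38 and Rcan1, an inhibitor of calcineurin, by 1.26 on the log2 scale. Dusp6, the phosphatase of ERK, and Arc passed narrowly at 0.73 and 0.74 (adjusted p = 0.0273 and 0.0247), and both lost their call without any 1 array other than pool B of HCD+Gl-2 (0.68 to 0.75 for Dusp6 and 0.64 to 0.78 for Arc). Of 33 listed regulators 10 were DE, all higher, with a list median of 0.37.

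Among secreted and signalling products 5 of 19 were DE, all higher, with a list median of 0.21. Cyr61 (now Ccn1), a matrix protein that binds integrins, read 8.50, 8.63 and 8.36 in HCD and 11.30, 10.73 and 11.50 in HCD+Gl-2, a log2 fold change of 2.68 ± 0.26 (adjusted p = 3.13e-09). Hbegf, a ligand of the epidermal growth factor receptor, read 7.76, 7.64 and 7.80 in HCD and 9.19, 8.58 and 9.34 in HCD+Gl-2, a fold of 2.47 (adjusted p = 2.64e-09). Ptgs2, the inducible cyclooxygenase that starts prostaglandin synthesis, read 6.35, 6.30 and 6.28 in HCD and 7.19, 7.18 and 7.37 in HCD+Gl-2, a log2 fold change of 0.94 ± 0.20 (adjusted p = 0.00673). The chemokine Cxcl1 (0.73) and the matrix protease Adamts1 (0.71) passed near the fold threshold. Cxcl1 lost its call without pool A of HCD+Gl-2 (0.70, just under the threshold) or of HCD (0.62), Adamts1 without pool C of HCD+Gl-2 (0.62) or pool A of HCD (0.66), and Ptgs2 without pool C of HCD+Gl-2 (0.88). The cytokines Il6 (-0.01), Tnf (0.06) and Ccl2 (0.04) did not pass, and Il1b passed the adjusted p but not the fold threshold (log2 fold change 0.62, adjusted p = 0.0164).

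Pool B of HCD+Gl-2 was the lowest of the 3 arrays in 28 of the 29 called immediate early genes. The median response against the HCD mean was 1.60 in pool A, 1.21 in pool B and 1.63 in pool C. Pool C, the mix of A and B, read above both in 23 of these 29 genes, against 40.2% of all genes in this group, and lay 0.25 (median, log2) above the mean of A and B taken on the linear scale. Without pool B 29 of the 29 stayed DE, and without pool C 24 did.

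**Figure D2:**
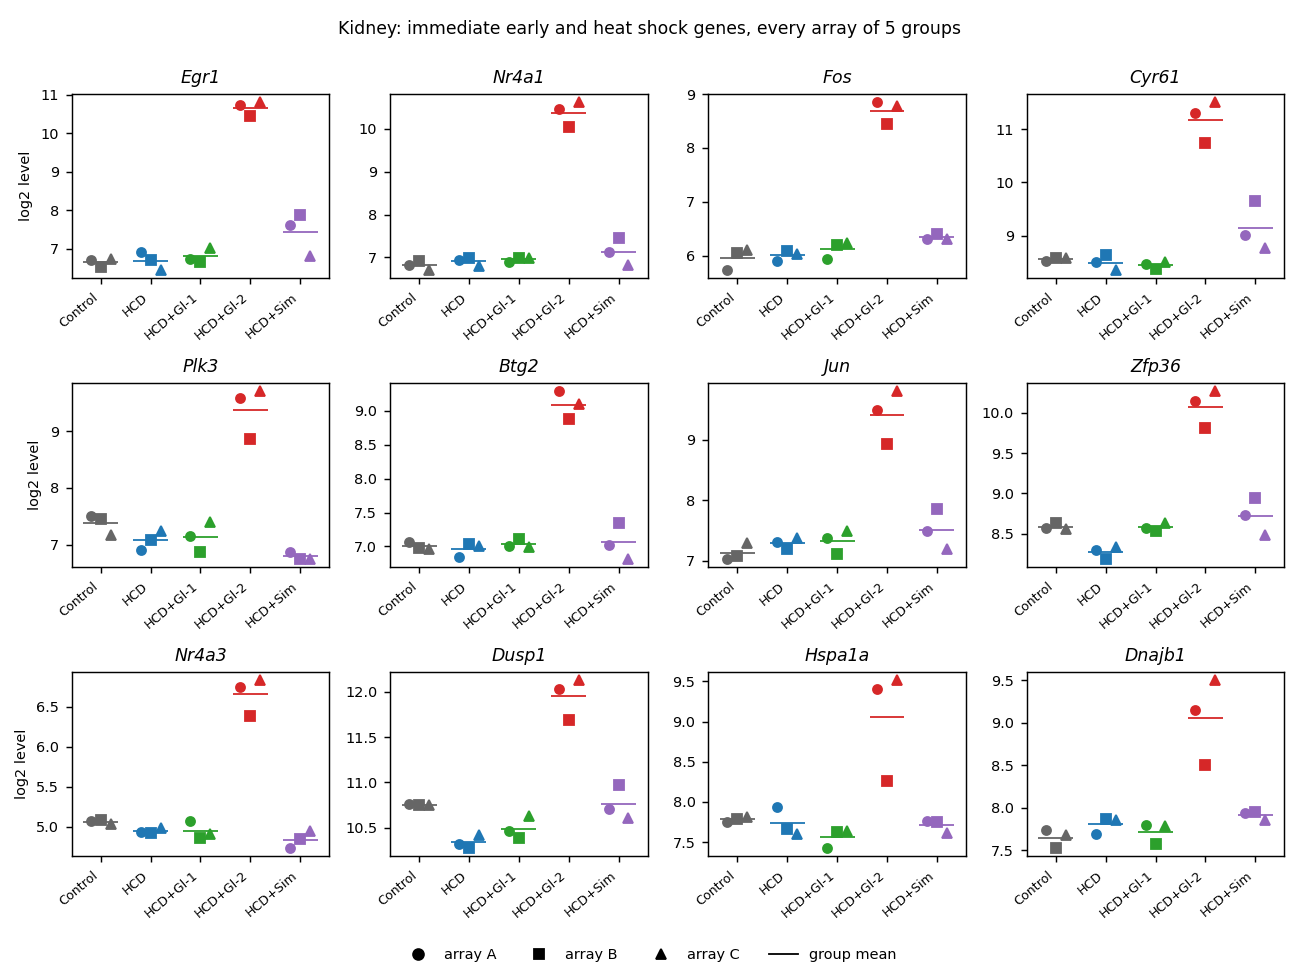
Log2 level of 12 called genes (y axis, a scale of its own in each panel) in the 3 arrays of each of the 5 kidney groups (x axis). Circles, squares and triangles are pools A, B and C, and lines are group means. In every panel the HCD+Gl-2 arrays lie above the 12 others, with pool B the lowest of the 3.

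The promoters of these genes were read from RefSeq (GRCm38.p6) as 250 bases before and 50 after each listed start, for 37 of the 47 higher genes. The 5 stretches below end at the base before the start and are shown because they belong to genes of the response and hold the letters that the cyclic AMP response element binding factors (core site TGACG or its reverse complement CGTCA, full element TGACGTCA, which holds a core site on each strand) or serum response factor (the CArG box) are known to bind. Capitals mark the core sites in Nr4a1 and Fos, the full element in Btg2 and Dusp1 and the CArG box in Zfp36.
Nr4a1, chr15:101266596-101266845, plus strand: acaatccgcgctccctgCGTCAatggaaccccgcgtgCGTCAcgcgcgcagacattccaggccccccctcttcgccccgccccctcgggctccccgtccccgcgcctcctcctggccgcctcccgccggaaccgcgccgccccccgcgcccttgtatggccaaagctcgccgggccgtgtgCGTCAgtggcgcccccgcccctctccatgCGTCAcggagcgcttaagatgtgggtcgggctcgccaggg
Fos, chr12:85473640-85473889, plus strand: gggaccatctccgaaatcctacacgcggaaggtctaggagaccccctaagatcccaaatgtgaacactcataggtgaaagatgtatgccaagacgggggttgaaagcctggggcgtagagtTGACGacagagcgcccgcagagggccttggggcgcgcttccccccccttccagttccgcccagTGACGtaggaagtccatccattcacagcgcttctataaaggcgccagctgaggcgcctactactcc
Btg2, chr1:134079156-134079405, minus strand: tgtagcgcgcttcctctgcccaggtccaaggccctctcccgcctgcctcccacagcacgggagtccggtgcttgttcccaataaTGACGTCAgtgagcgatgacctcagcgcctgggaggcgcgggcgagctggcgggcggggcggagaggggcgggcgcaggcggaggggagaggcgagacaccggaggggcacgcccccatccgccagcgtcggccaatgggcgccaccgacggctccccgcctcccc
Dusp1, chr17:26508473-26508722, minus strand: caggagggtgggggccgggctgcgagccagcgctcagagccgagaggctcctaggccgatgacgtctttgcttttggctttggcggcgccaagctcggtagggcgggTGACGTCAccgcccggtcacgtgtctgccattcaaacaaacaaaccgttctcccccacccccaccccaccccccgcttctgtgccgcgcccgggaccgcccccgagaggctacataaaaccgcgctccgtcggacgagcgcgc
Zfp36, chr7:28379229-28379478, minus strand: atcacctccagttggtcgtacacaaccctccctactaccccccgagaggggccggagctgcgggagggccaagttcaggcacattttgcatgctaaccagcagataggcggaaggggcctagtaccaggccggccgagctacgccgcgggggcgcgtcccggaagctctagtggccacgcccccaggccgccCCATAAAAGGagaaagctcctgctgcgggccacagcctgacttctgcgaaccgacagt

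Nr4a1 held 4 core sites in these bases and Fos 2. Over the whole windows of 24 called immediate early genes with an entry, 18 held a core site on either strand, against 23.0% of the 27025 symbols of the RefSeq promoter set, which counts every listed start and is not the set of genes on the arrays. Egr1, Ier2, Gem, Hbegf and Arc had no entry, so their promoters were not searched. The full element was in 4 of the 24 (Rcan1, Dusp1, Slc25a25 and Btg2) against 2.03% of all RefSeq symbols, and the CArG box in 2 of them (Egr2 and Zfp36) against 1.81%. The AP-1 site, TGACTCA or TGAGTCA, was in 2 of the 24 and in 5.95% of all RefSeq symbols. The heat shock element (GAANNTTCNNGAA or TTCNNGAANNTTC) was in none of the 4 called heat shock genes and in 0.662% of all RefSeq symbols. Only exact matches within the windows were counted, so elements with other letters or outside the windows would be missed. A match is a description of these letters, and binding was not measured.

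Heat shock genes, which encode chaperones that refold proteins after stress, rose in part. Hspa1a, the inducible Hsp70, read 7.94, 7.66 and 7.60 in HCD and 9.40, 8.26 and 9.51 in HCD+Gl-2, a log2 fold change of 1.32 ± 0.23 (adjusted p = 5.01e-04). Its near-identical copy Hspa1b, with which it may share probe signal, read 8.52, 8.43 and 8.40 in HCD and 9.64, 8.96 and 9.98 in HCD+Gl-2 (1.08 ± 0.19, adjusted p = 5.29e-04). Dnajb1, a partner of Hsp70, read 7.68, 7.87 and 7.86 in HCD and 9.15, 8.50 and 9.50 in HCD+Gl-2 (1.25 ± 0.28, adjusted p = 0.0126). Pool B was again the lowest array of HCD+Gl-2, at a median response of 0.58 over the 4 called genes against 1.27 in pool A and 1.61 in pool C. Dnajb4 rose by 0.92. Of 20 listed genes these 4 were DE, all higher, the list median was 0.22, and Hspa8 (0.31), Hsph1 (0.57), Hsp90aa1 (0.23) and Bag3 (0.10) did not pass. With pools A and B only, Hspa1a, Hspa1b and Dnajb1 lost their calls (adjusted p = 0.132, 0.0921 and 0.207). Hspa1a and Hspa1b also lost them in a fit of the 6 compared arrays alone (adjusted p = 0.0747 and 0.0573), and Dnajb1 lost its call without pool A (1.19) or C (1.02) of HCD+Gl-2 or pool A (1.19) or B (1.28) of HCD. Snord14e, a small nucleolar RNA encoded within Hspa8, rose by a log2 fold change of 0.92 ± 0.15 (adjusted p = 2.30e-04). None of 14 genes of the unfolded protein response of the endoplasmic reticulum was DE (limma; 3 at an unadjusted p under 0.05), and Ddit3, the highest, reached 0.43 on the log2 scale (adjusted p = 0.0359).

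**Figure D3:**
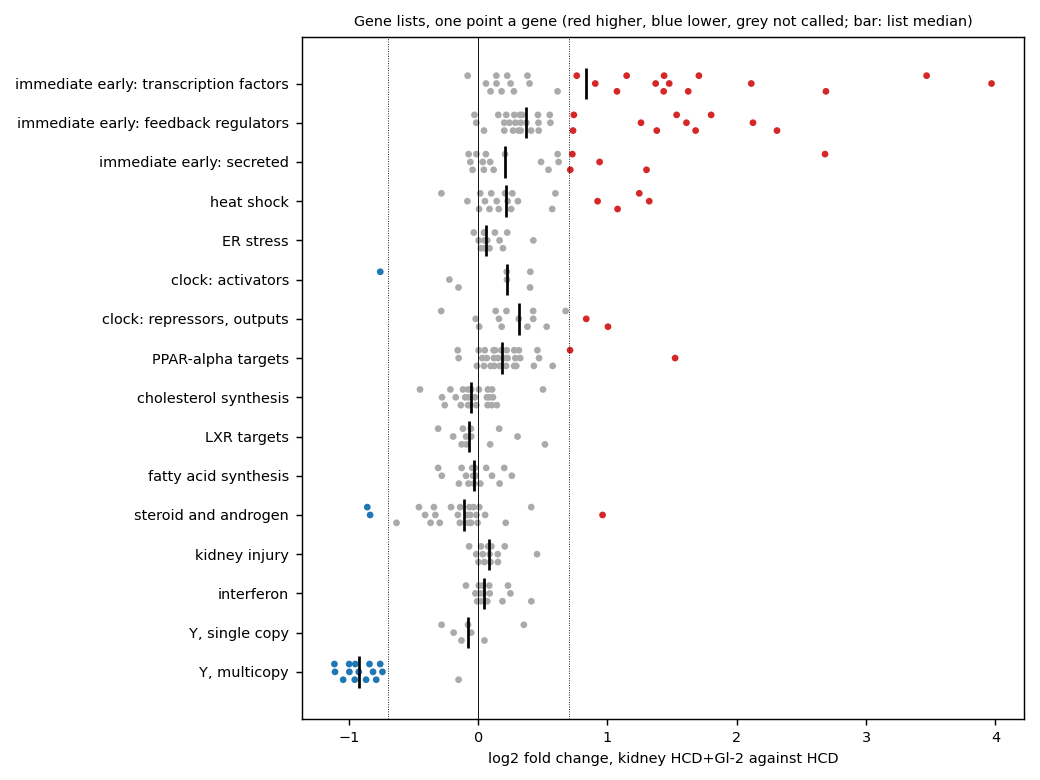
Log2 fold change of HCD+Gl-2 against HCD in kidney (x axis) for each measured gene of 16 lists (rows). Red and blue points are genes called higher and lower, grey points are not called, black bars are list medians and dotted lines mark 0.7 in each direction. The immediate early lists reach furthest to the right and the multicopy Y list lies at a median of -0.92.

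Clock genes moved in part. Npas2, an activator of the circadian clock that pairs with Bmal1, read 7.60, 7.53 and 7.51 in HCD and 6.84, 6.62 and 6.91 in HCD+Gl-2, a log2 fold change of -0.76 ± 0.19 (adjusted p = 0.0321). Its 3 HCD+Gl-2 arrays were the lowest of the 15 kidney arrays, yet the call was lost without any 1 of the 6 arrays (-0.82 to -0.67). Ccrn4l (now Noct), a rhythmic phosphatase, rose by 1.00 ± 0.15 (adjusted p = 2.22e-05) and Ciart, a repressor of the clock, by 0.84 ± 0.18 (adjusted p = 0.00912), a call that Ciart lost without pool C of HCD+Gl-2 (0.79) or pool A (0.82) or B (0.75) of HCD. The repressors Per1 (0.68), Bhlhe40 (0.53) and Per2 (0.43) passed the adjusted p but not the fold threshold (adjusted p = 0.00913, 0.0245 and 0.0379). Arntl, which encodes Bmal1 (-0.22), Clock (-0.15), Nr1d1 (-0.29) and Dbp (0.22) did not pass. The lists gave 1 of 7 activators DE lower and 2 of 15 repressors and outputs DE higher. By mean, 4 of the 7 activators were higher and 3 lower, with a list median of 0.22. Of the 15 repressors and outputs 13 were higher by mean and 2 lower, with a list median of 0.31.

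Among targets of PPAR-alpha, the nuclear receptor that drives fatty acid oxidation, 2 of 32 were DE, both higher, and the list median was 0.19. Pdk4, the kinase that shuts off pyruvate dehydrogenase during fasting, read 7.82, 7.71 and 8.04 in HCD and 8.63, 8.25 and 8.82 in HCD+Gl-2, a log2 fold change of 0.71 ± 0.17 (adjusted p = 0.0253). HCD was the lowest of the 5 kidney groups for Pdk4, with a mean of 7.86 against 8.51 in Control, 8.95 in HCD+Gl-1, 8.57 in HCD+Gl-2 and 8.81 in HCD+Sim. Pdk4 lost its call without pool A (0.68) or C (0.58) of HCD+Gl-2 or pool A (0.69) or B (0.64) of HCD, and in a fit of the 6 compared arrays alone (adjusted p = 0.0605). Acaa2 (0.33, adjusted p = 0.0062) passed the adjusted p alone, and Cpt1a (0.15), Cyp4a14 (0.58) and Cyp4a10 (0.28) did not pass. Pck1, the rate-limiting enzyme of glucose formation, passed the adjusted p at 0.64 (adjusted p = 3.79e-04), below the fold threshold.

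No gene of cholesterol synthesis was DE in kidney by limma, of 25 measured (4 at an unadjusted p under 0.05), and the list median was -0.05. Sqle (-0.13), Hmgcs1 (0.11), Idi1 (-0.45) and Insig1 (0.01) did not pass. Of 12 targets of the oxysterol receptor LXR, none was DE by limma (4 at an unadjusted p under 0.05), and Mylip (0.52, adjusted p = 0.00665) and Abca1 (0.30, adjusted p = 0.0179) passed the adjusted p alone. By mean, 4 of these 12 targets were higher and 8 lower, with a list median of -0.07. None of 17 genes of fatty acid synthesis was DE by limma, with 3 at an unadjusted p under 0.05 and a lowest adjusted p of 0.076. By limma the kidney injury list had 0 of 14, the interferon list 0 of 15 and the list of Nrf2 targets and metallothioneins 0 of 13 DE genes, with 2, 2 and 1 at an unadjusted p under 0.05, and Havcr1 (-0.01) and Lcn2 (0.05), the injury markers in common use, lay near 0.

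Of the genes of steroid and androgen metabolism, 2 fell and 1 rose. Srd5a2, a steroid 5-alpha reductase that forms dihydrotestosterone, read 10.03, 10.09 and 10.10 in HCD and 9.20, 9.41 and 9.04 in HCD+Gl-2, a log2 fold change of -0.86 ± 0.11 (adjusted p = 1.32e-06). Cyp4a12a, the androgen-induced enzyme that makes 20-HETE, read 11.67, 11.82 and 11.59 in HCD and 10.85, 11.01 and 10.70 in HCD+Gl-2, a log2 fold change of -0.84 ± 0.14 (adjusted p = 1.71e-04). Akr1c18, which inactivates progesterone, went the other way, at 8.92, 8.60 and 9.01 in HCD and 10.00, 9.63 and 9.77 in HCD+Gl-2 (0.96 ± 0.17, adjusted p = 5.64e-04). The levels of HCD and HCD+Gl-2 did not overlap in any of these genes. Cyp4a12b (-0.63), a near copy of Cyp4a12a, Odc1 (-0.41) and Srd5a1 (-0.34) passed the adjusted p alone, while the androgen-responsive Kap (-0.04) did not pass. The list of 26 steroid and androgen genes had 1 higher and 2 lower calls, a median of -0.11, and 21 members with a log2 fold change under 0.

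Across the 5 kidney groups Srd5a2 had a mean of 9.30 in Control, 10.07 in HCD, 9.38 in HCD+Gl-1, 9.22 in HCD+Gl-2 and 10.15 in HCD+Sim. Hrg, which encodes a plasma glycoprotein made mainly in liver, had means of 8.05, 8.67, 8.02, 7.81 and 8.79 in the same order. Hrg read 8.66, 8.52 and 8.82 in HCD and 7.79, 7.81 and 7.84 in HCD+Gl-2, a log2 fold change of -0.85 ± 0.15 (adjusted p = 3.87e-04). Both genes were thus high in HCD and HCD+Sim and lower in Control and with either extract. Hrg was the 1 DE gene of 10 liver markers, and the summed level of the liver list ran from 12.53 to 12.57 in HCD and from 12.43 to 12.57 in HCD+Gl-2. Slc22a26, an organic anion transporter of the kidney, was lowest in HCD and HCD+Sim, with means of 7.48, 7.15, 7.85, 7.90 and 7.36, and its log2 fold change of HCD+Gl-2 against HCD was 0.75 ± 0.14 (adjusted p = 7.07e-04), a call lost without pool A of HCD+Gl-2 (0.69) or pool C of HCD (0.61).

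**Figure D4:**
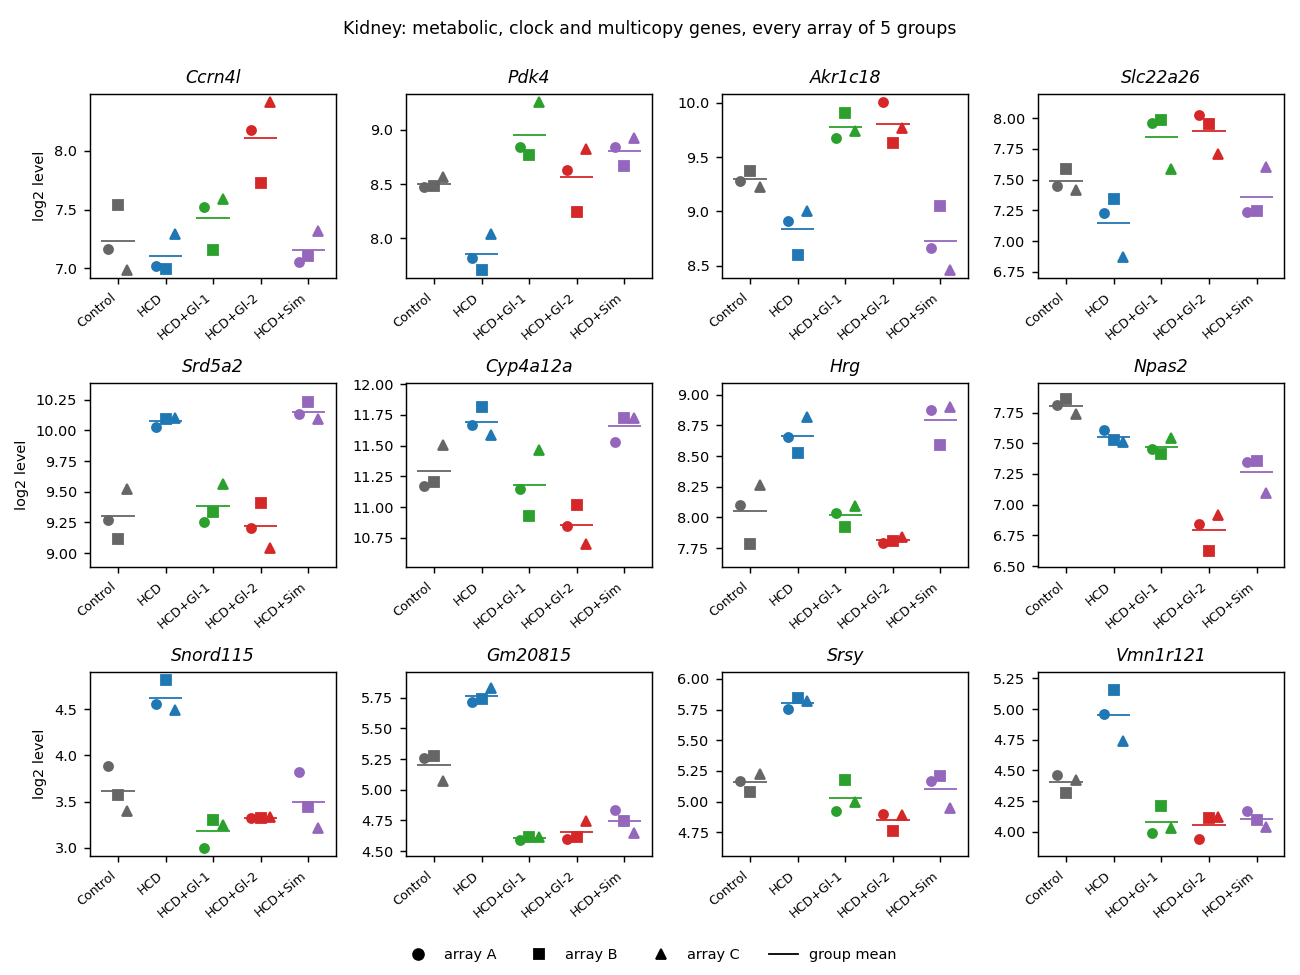
Log2 level of 12 called metabolic, clock and repeated-family genes (y axis, a scale of its own in each panel) in the 3 arrays of each of the 5 kidney groups (x axis). Symbols are pools A, B and C and lines are group means. Pdk4 is lowest in HCD, Ccrn4l is highest and Npas2 is lowest in HCD+Gl-2, and the genes of the bottom row are highest in HCD.

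The repeated-family genes were highest in HCD among the 5 kidney groups. Snord115, a repeated small nucleolar RNA of brain, read 4.56, 4.81 and 4.49 in HCD, 3.32, 3.32 and 3.33 in HCD+Gl-2 and 3.88, 3.57 and 3.39 in Control. The log2 fold change of Snord115 against HCD was -1.30 ± 0.15 (adjusted p = 9.16e-08) with Gl-2, -1.44 with Gl-1 and -1.13 with simvastatin, comparisons that share the HCD arrays. Srsy, a Y gene of spermatids, read 5.76, 5.85 and 5.82 in HCD, 4.90, 4.76 and 4.89 in HCD+Gl-2 and 5.17, 5.08 and 5.23 in Control, and its log2 fold change with Gl-2 was -0.95 ± 0.11 (adjusted p = 1.33e-07). Of 15 measured genes of a multicopy Y list 14 were DE lower, but the list was drawn in part from calls on these same arrays, so the count is a description. In 21 of the 22 repeated-family genes the 3 HCD arrays lay above the 12 other kidney arrays, which held for 0.503% of all genes. The 22 had a median level of 4.99 in HCD, 4.53 in Control and 4.13 in HCD+Gl-2, below the array medians, and none was called when genes with a mean under 6 were left out. Their probes can also match several copies, so single members are uncertain. The single-copy Y genes Ddx3y (0.35), Kdm5d (-0.05), Eif2s3y (-0.08) and Uty (-0.13) did not pass, and none of 7 was DE by limma (2 at an unadjusted p under 0.05). Of 146 Vmn1r pheromone receptors, a family looked at after its values were seen, 3 were DE lower and the median was -0.03.

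Several called genes stood outside these groups. Gm29779, a gene model without a match in the reference tables, read 6.80, 6.78 and 7.10 in HCD and 9.90, 9.76 and 9.62 in HCD+Gl-2, a log2 fold change of 2.87 ± 0.43 (adjusted p = 2.63e-05). Socs2, a suppressor of growth hormone signalling, read 8.25, 8.12 and 8.36 in HCD and 9.34, 9.24 and 9.36 in HCD+Gl-2 (1.07 ± 0.14, adjusted p = 1.93e-06). Slc20a1, a sodium-phosphate cotransporter, read 7.97, 8.03 and 8.12 in HCD and 9.02, 8.73 and 8.96 in HCD+Gl-2 (0.86 ± 0.08, adjusted p = 5.31e-10). The arrays did not overlap in any of these 3 genes. Of 12 growth hormone genes Socs2 was the only DE one, and Igf1 had a log2 fold change of -0.15. Tmem252 (1.21), Gprc5a (0.86), Mfsd7b (0.76; now Flvcr1, a haem exporter) and Sprr1a (0.75) were also higher, and Sprr1a lost its call without pool A (0.69) or B (0.68) of HCD+Gl-2 or pool C of HCD (0.66), and in a fit of the kidney arrays alone (adjusted p = 0.0516). Wdr83os, which lies on the strand opposite Wdr83, was lower at 10.70, 10.60 and 10.33 against 11.14, 11.36 and 11.29 in HCD (-0.72 ± 0.13, adjusted p = 5.35e-04), a call lost without pool C of HCD+Gl-2 (-0.61) or pool B of HCD (-0.67).

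Markers of kidney segments and of other cells and tissues were read beside these changes. None of 26 nephron and collecting duct markers was DE, and Aqp2, the water channel of the collecting duct, passed the adjusted p alone at 0.48 (adjusted p = 0.00341). The summed level of 7 immune cell markers ran from 9.30 to 9.41 in HCD and from 9.42 to 9.45 in HCD+Gl-2, and that of 10 adrenal markers from 9.01 to 9.09 and from 9.04 to 9.20. For 8 adipose markers it ran from 9.53 to 9.61 in HCD and from 9.61 to 9.78 in HCD+Gl-2, and none of the immune, adrenal or adipose markers was DE by limma (3, 1 and 0 at an unadjusted p under 0.05). The summed levels of the 2 diets did not overlap for the immune list. They also did not for 3 loop of Henle markers, at 13.03 to 13.14 in HCD and 13.28 to 13.33 in HCD+Gl-2. For 3 distal tubule markers they lay at 12.99 to 13.00 and 13.05 to 13.08. Such sums give most weight to the brightest markers. The medians of the immune list overlapped, at 6.94, 6.74 and 6.99 in HCD pools A, B and C and 6.79, 6.72 and 6.80 in HCD+Gl-2. The part of these markers in the response was not tested.

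HCD+Gl-2 was set against the other diets in turn, in comparisons that share the HCD+Gl-2 arrays. Against Control, 44 genes were higher in HCD+Gl-2 and 4 were lower (0.199% and 0.0181% of the genes). Against HCD+Gl-1, the extract from mushrooms without acetylsalicylic acid, 39 were higher and 1 was lower (0.181% in either direction), and against HCD+Sim 41 were higher and 8 lower (0.222%). The 29 called immediate early genes had a median log2 fold change of 1.44 against HCD, 1.32 against Control, 1.34 against HCD+Gl-1 and 1.29 against HCD+Sim. Their 3 HCD+Gl-2 arrays lay above all 12 other kidney arrays in 29 of 29, where 1.68% of all genes showed this, although the genes had been chosen for their difference from HCD. In HCD+Gl-1 their median against HCD was 0.05, and in HCD+Sim it was 0.11. Egr1 and Cyr61 were highest among the other groups in HCD+Sim, with log2 fold changes against HCD of 0.75 ± 0.48 and 0.65 ± 0.26 that did not pass (adjusted p = 0.875 and 0.67). The kidneys of the Gl-1 diet differed from HCD in 29 genes, 4 higher and 25 lower, and those of the simvastatin diet in 31, 6 higher and 25 lower.

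The 2 extracts were compared directly, in the same fit. Egr1 was higher with Gl-2 than with Gl-1 by a log2 fold change of 3.86 ± 0.48 (adjusted p = 1.25e-06) and Cyr61 by 2.73 ± 0.26 (adjusted p = 3.83e-09). For Akr1c18 the difference of the extracts was 0.03 ± 0.17 and for Srd5a2 -0.17 ± 0.11, neither of which passed. Cyp24a1, the enzyme that degrades active vitamin D, was the 1 gene lower with Gl-2 than with Gl-1 (-0.92 ± 0.10, adjusted p = 1.69e-07), at 10.22, 10.13 and 9.97 against 10.92, 11.05 and 11.09. Cyp24a1 was above HCD (9.57, 9.80 and 9.68) with both extracts. Its log2 fold change of Gl-2 against HCD was 0.42 (adjusted p = 0.0321), below the fold threshold. Control read 10.55, 10.63 and 10.48, above HCD+Gl-2 and below HCD+Gl-1.

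In liver the immediate early genes responded to the same diet in 2 of the 3 arrays. Egr1 read 7.14, 7.07 and 7.25 in pools A, B and C of liver HCD and 10.72, 6.98 and 11.16 in liver HCD+Gl-2, so pool B, 1 of the 2 independent pools, lay below the HCD arrays. Over the 29 immediate early genes called in kidney, the median response against the HCD mean was 0.66, 0.12 and 1.09 in liver pools A, B and C, and the median liver log2 fold change was 0.58, or 0.88 without pool B. The difference between the liver and the kidney response to Gl-2 passed the thresholds in 72 genes (0.326%), and in 15 of the 47 genes higher in kidney and 24 of the 27 lower ones, genes that had been chosen for their kidney value. Without 1 liver array at a time, 13 to 21 of the 47 and 22 to 24 of the 27 passed, and without pool B of liver HCD+Gl-2 14 and 24 did.

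Egr1 had a log2 fold change of 3.97 ± 0.48 in kidney and 2.47 ± 0.48 in liver, and the difference did not pass (adjusted p = 0.493). Without liver pool B the liver value of Egr1 was 3.79. Nr4a1 read 7.10, 7.15 and 7.01 in liver HCD and 8.69, 6.97 and 9.20 in liver HCD+Gl-2, again with no rise in pool B. Its difference of liver from kidney was -2.27 (adjusted p = 7.01e-04), and without liver pool B it was -1.61 (adjusted p = 2.44e-04), with a liver log2 fold change of 1.86. Nr4a2 and Gem stood near 0 in liver, at 0.04 to 0.14 for Nr4a2 and 0.07 to 0.12 for Gem without any 1 array, and their differences from kidney passed in each of these fits. Dnajb1 (1.25 in kidney and 1.63 in liver), Ciart (0.84 and 1.23) and Npas2 (-0.76 and -0.82) did not differ between the organs past the thresholds. Dnajb1 read 9.53, 7.51 and 10.01 in liver HCD+Gl-2, and without pool B its liver value was 2.39 and its difference from kidney passed at 1.14 (adjusted p = 0.00123). The repeated-family genes had a liver median of 0.12 and a kidney median of -0.92 over the 22 genes. In brain the 29 immediate early genes had a median log2 fold change of 0.06. The brain response differed from that of kidney in 72 genes (0.326%), 34 of the 47 higher and 24 of the 27 lower genes among them, and in 28 to 30 and 21 to 23 of them without 1 brain array.

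**Figure D5:**
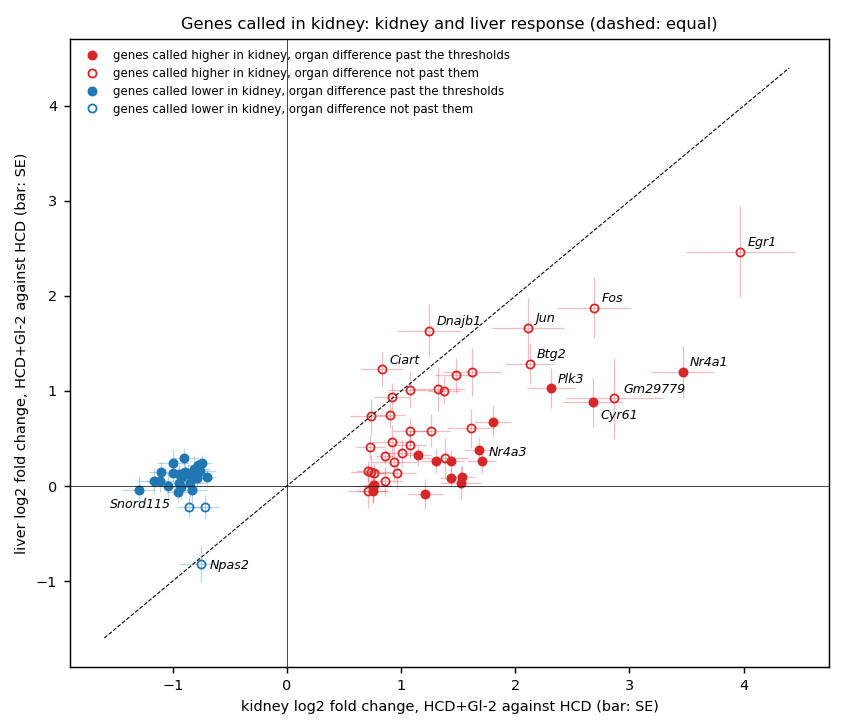
Log2 fold change of HCD+Gl-2 against HCD in kidney (x axis) and liver (y axis) for the 74 genes called in kidney. Bars are 1 SE from the fit of all arrays, which pools the spread of a gene over the organs. They are thus equal in kidney and liver and do not show the spread of the 3 liver arrays alone. Pool B of liver HCD+Gl-2 gave no rise of Egr1. Red and blue are genes called higher and lower in kidney, filled points have an organ difference past the thresholds, and the dashed line marks equal responses. Egr1 and Nr4a1 lie below the line, and Dnajb1 and Ciart above it.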

How the data were processed

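RNA pools of kidney, liver and brain were hybridised by the study to Affymetrix Mouse Gene ST arrays. The authors corrected signals for background with RMA, quantile normalized them, attenuated a batch effect with ComBat (its batches are not given in the sources used here), kept 1 probe set per gene (that of widest interquartile range) and deposited log2 values. ComBat can remove or add differences between groups if batches and groups overlap, and fewer than all probe sets of a gene are seen. Of the 22080 genes, 30 had names turned into dates and were tested but not named. No brightness filter or detection call was used in the main fit, and a filter on genes with a mean under 6 was run as an alternative. The number of arrays limits the precision.

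Groups and pool letters came from the labels. limma 3.58.1 in R 4.3.3 fitted 15 group means to all 45 arrays with empirical Bayes moderation (residual degrees of freedom 30, prior 7.34) and Benjamini-Hochberg adjustment over all genes within each contrast. DE genes had a log2 fold change beyond 0.7 in either direction with adjusted p up to 0.05. Every DE gene of the comparison could be named except 1 that is not reported here, with values per array for those of largest change and for listed genes. The genes, lists and alternatives were chosen with earlier results of these data known. Symbols were updated through RefSeq synonyms. The organ differences of single genes without 1 liver or brain array were added after seeing the data. The fit was tested on simulated data in which all arrays were independent. Pool C is a mix of A and B, so that test cannot check the p-values of such dependent arrays. Same-lettered pools of the 2 diets did not deviate together (correlations 0.05, -0.00 and 0.00 for A, B and C), so the letters were not taken as pairs. Plots came from Python 3.11.15 and matplotlib 3.10.9.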

Additional observations from a re-analysis of the deposited data

Results flagged for a closer look

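The response to Gl-2 was tested for a difference between organs, in a fit that holds the arrays of all 3 tissues. The liver response minus the kidney response passed the thresholds in 72 of all genes, in 15 of the 47 genes called higher in kidney and in 24 of the 27 called lower. Among the genes called in kidney this difference (log2) was -2.27 for Nr4a1, -1.80 for Cyr61, -1.44 for Nr4a3, -1.44 for Gem, -1.35 for Nr4a2, -1.30 for Tmem252, -1.30 for Slc25a25 and -1.28 for Plk3. Pool B of liver HCD+Gl-2 did not rise with pools A and C in Nr4a1, Cyr61 (9.87, 8.21 and 10.18 against 8.55, 8.66 and 8.41 in HCD) and, in part, Plk3 (10.21, 9.26 and 10.65 against 9.01, 8.85 and 9.16). Without it the difference was -1.61 for Nr4a1, -1.20 for Cyr61 and -0.89 for Plk3, and that of Plk3 no longer passed (adjusted p = 0.0897). Plk3 also did not pass without pool A (-1.28, adjusted p = 0.054) or C (-1.20, adjusted p = 0.0741) of liver HCD. For the repeated-family genes the difference was 1.26 for Snord115, 1.26 for Gm20815, 1.24 for Gm20877 and 1.22 for Gm26230, which were lower with Gl-2 in kidney and near 0 or above in liver.

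The brain response minus the kidney response passed in 72 of all genes, in 34 of the 47 genes called higher in kidney and in 24 of the 27 called lower. This difference was -4.77 for Egr1, -4.02 for Nr4a1, -2.54 for Fos, -2.51 for Plk3, -2.42 for Cyr61, -2.03 for Jun, -1.91 for Nr4a3 and -1.89 for Egr2. The repeated-family genes had 1.41 (Gm20815), 1.39 (Gm21943), 1.38 (Gm28683) and 1.32 (Gm20877). Genes were chosen for their kidney value, and the organ differences share the kidney arrays.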

How the results depend on the processing

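The counts against HCD were 47 higher and 27 lower. The lower count fell to 5 when genes with a mean under 6 were left out, a filter that removes the repeated-family genes. Without a fold change threshold there were 119 higher and 101 lower genes against HCD, and 193 DE genes of Gl-2 against Control (48 with it), 87 against Gl-1 (40) and 149 against simvastatin (49), 29 of HCD against Control (9), 59 of Gl-1 against HCD (29), 49 of simvastatin against HCD (31) and 138 for liver minus kidney (72). The letters of the pools did not pair the arrays. With the pool letter as a replicate block, the counts were 47 higher and 29 lower, all 74 calls were kept, and Control, Gl-1 and simvastatin gave 47, 41 and 49. Leaving out 1 array gave 39 to 56 higher and 24 to 32 lower genes. Of the 47 higher genes 36 were kept in every such fit, and of the 27 lower 22. Pools A and B alone kept 40 and 25, and Hrg lost its call (adjusted p = 0.059). No result reversed. ComBat batches are unknown, and 3 arrays on 2 pools limit the precision.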

Other observations

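Small nucleolar RNAs of the H/ACA class, which guide pseudouridylation, were higher with Gl-2 in 26 of 27 members by mean, with a median log2 fold change of 0.24 and 12 members whose HCD+Gl-2 arrays lay above those of HCD, against 11957 of all 22080 genes by mean and 11.4% by arrays. Snora31 (0.60, adjusted p = 0.033) and Snora7a (0.40, adjusted p = 0.00935) passed the adjusted p alone, and none was DE by limma (13 at an unadjusted p under 0.05). The C/D class, grouped by the name Snord, had a median of 0.20 over 38 members, with Snord14e higher and Snord115 lower. Immunoglobulin kappa genes had a median of -0.20 over 19 members, and 1100 olfactory receptors one of -0.03, with no DE gene by limma in either family (8 and 93 at an unadjusted p under 0.05). These families were chosen after their values were seen.

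Of the genes that were not called against HCD, and named after their values were seen, Rnu3a (1.16), Snora31 (0.92) and Zbtb16 (0.76), a glucocorticoid-induced repressor, were higher with Gl-2 than in Control, and Ly96 (-0.89), a cofactor of the endotoxin receptor, and Slc7a12 (-1.07), an amino acid transporter, were lower. Against Gl-1, the clock repressor Per1 (0.86), Rgs2 (0.80), a regulator of G protein signalling, and Alas1 (0.74), the first enzyme of haem synthesis, were higher. Against simvastatin, BC023105 (-1.55), Slc7a12 (-1.11), Zfp442 (-0.86) and the interferon-induced GTPases Iigp1 (-0.83) and Tgtp2 (-0.74) were lower. Rnu2-10 (0.91), Rdm1 (0.81), Per1 (0.76) and Sprr2a2 (0.70) were higher with Gl-2 than with simvastatin.

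In liver, pool C of HCD+Gl-2 read above both other pools in 26 of the 29 immediate early genes called in kidney, by a median of 0.53 over the linear mean of A and B, and in kidney HCD pool C did so in 13 of 29 (0.06).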
